A study of Mus musculus with 19 samples.

Results

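The cytosolic ribosomal protein genes are the 76 genes, of 24689 in the expression table, whose symbol is Rpl or Rps followed by a number and at most an a or x, or is Rplp0, Rplp1, Rplp2 or Rpsa. They comprise 30 genes of the small subunit and 46 of the large subunit. The rule reads symbols and no measured value, but it was set with earlier results of these data known. All 76 had at least 0.1 TPM (transcripts per 1000000, a level per transcript length) in at least 3 mice, and so all were among the 22745 genes tested.

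The data are bulk RNA sequencing of tongue epithelium from 19 mice in 4 groups, taken 15 days after transgene induction to follow early tumour formation by 2 oncogenic inputs, alone and together. Tongue epithelium was separated from the underlying tissue with enzymes, and libraries were made from polyadenylated RNA. The mice were young adult littermates of both sexes. Tamoxifen was injected into the tongue and doxycycline was given in the diet in all groups, and all mice carried the tetON_H2B-GFP reporter according to the methods.

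Krt14-CreERT, a tamoxifen-dependent recombinase made in basal keratinocytes, releases LSL-rtTA, and rtTA with doxycycline switches on the tetON transgenes. The 5 N mice were controls. N mice 1 to 3 carried Krt14-CreERT/LSL-rtTA, N mouse 4 carried LSL-rtTA without the recombinase, and N mouse 5 carried Krt14-CreERT with tetON_E6-E7 and tetON_YAP1S127A but no rtTA. The 5 E mice had tetON_E6-E7, the human papillomavirus 16 oncogenes that inactivate the p53 and Rb tumour suppressors, besides Krt14-CreERT/LSL-rtTA. The 3 Y mice had tetON_YAP1S127A, a constitutively active form of the transcriptional coactivator YAP, and the 6 EY mice had both transgenes. Since the transgenes act only in cells that descend from recombined basal cells, each library also held RNA from cells without them. Total reads recovered per mouse ran from 8798700 to 10654405 for the N mice, from 8285602 to 9482472 for the E mice, from 8269674 to 9249340 for the Y mice and from 8841013 to 11007304 for the EY mice.

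A ribosome joins a small subunit, which reads the messenger RNA, to a large subunit, which forms peptide bonds, and each subunit is built from ribosomal RNA and ribosomal proteins. Most ribosomal proteins are made from a single functional gene with introns, while reverse transcribed copies without introns are scattered over the genome. The messenger RNAs of the family begin with an uninterrupted run of C and T called a 5′ TOP tract, through which the mTORC1 kinase and the RNA-binding protein LARP1 set how much of them is translated. In stratified epithelium, basal cells divide and make ribosomes while cells of the outer layers cornify.

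The start of 6 members is shown because the tract is known for this family and because the levels of these members carry results given further on, 4 with a run of 10 to 14 C or T near the start and 2, Rpl5 and Rpsa, with runs of 3 and 5. The other 4 starts read, those of Rplp0, Rpl26, Rps7 and Rpl41, had runs of 3 to 5. The sequences come from RefSeq (GRCm38.p6), run from 10 bases before the annotated transcript start to 20 after, and have the longest run of C and T near the start in capitals. Rps6 lies on the minus strand of chr4:86857348-86857377, Rpl38 on the plus strand of chr11:114668570-114668599, Rplp2 on the plus strand of chr7:141447641-141447670, Rpl13a on the minus strand of chr7:45128726-45128755, Rpl5 on the plus strand of chr5:107900518-107900547 and Rpsa on the plus strand of chr9:120127756-120127785.
Rps6: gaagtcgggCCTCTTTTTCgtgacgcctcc
Rpl38: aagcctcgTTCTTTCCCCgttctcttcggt
Rplp2: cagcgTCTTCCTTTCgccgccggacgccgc
Rpl13a: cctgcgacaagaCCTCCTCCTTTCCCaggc
Rpl5: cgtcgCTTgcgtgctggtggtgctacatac
Rpsa: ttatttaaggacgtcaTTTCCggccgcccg

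Promoters, meaning 250 bases before to 50 bases after a start, were listed for 56 of the 76 members. A run of at least 8 C or T that reached within 10 bases of the start was sought on the strand of the gene. It was found in 27 of the 56 (48.2%) and in 15.8% of all 27025 genes with a listed promoter. A gene counted if any of its promoters matched. The same run on the other strand was found in 4 members (7.1%) and in 17.4% of all these genes. Of the factor motifs, searched on both strands, CCGGAAG (the core bound by ETS factors and GABP) occurred in 23 members (41.1%) and in 9.9% of all these genes. GCCATNTT, the YY1 motif, occurred in 11 members (19.6%) and in 7.0% of all. CACGTG, the E-box bound by MYC, occurred in 6 members (10.7%) and in 8.1% of all. GGAATG, a core of the TEAD motif through which YAP acts, occurred in 6 members (10.7%) and in 16.6% of all. The number of members in which 2 of these 4 motifs shared bases was 0. A match describes letters in this window and does not show that a factor binds there.

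Ribosomal protein genes were among the most abundant transcripts of the normal tongue epithelium. The median member averaged 1383 TPM in the 5 N mice, with quartiles at 766 and 2098, while the median of all genes tested was 2.55 TPM. Of the 76 members, 46 averaged over 1000 TPM. The highest were Rplp1 at 6400 TPM and Rplp0 at 4306 TPM, which encode proteins of the stalk that recruits translation factors to the large subunit. They were followed by the small subunit genes Rps12 at 4194 TPM, Rps26 at 3353 TPM and, between these, the large subunit gene Rpl41 at 3519 TPM, which encodes the shortest protein of the family.

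The lowest members in N were Rpl24 at 0.61 TPM, Rps10 at 5.07 TPM and Rpl13a at 24.7 TPM, all of which encode core parts of the ribosome. They averaged 6, 56 and 139 reads per N mouse. In the GENCODE M21 annotation (GRCm38.p6), their exons overlap other annotated genes on the same strand, Gm28037 over 47.0% of Rpl24, Gm45713 over 29.4% of Rpl13a and RPS10-NUDT3 over 20.6% of Rps10, and none of these 3 genes is in the table. What this overlap did to their counts was not tested. The next lowest, Rpl11 at 160 TPM, averaged 7052 reads, and the length by which the authors divided its reads was 7.71 times that of the median member. Rpl11 stood 73rd of 76 by TPM and 43rd by reads, so the order of levels between members depends on those lengths. When mice are compared within a member, its own length drops out of the ratio. The scale of TPM in each mouse still rests on the lengths used for all genes, so such comparisons can differ between TPM and reads. The median log2 difference of EY from N over the members was 0.417 in TPM and 0.25 by limma voom on recovered reads.

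The 76 members together took up a share of all TPM that differed between the groups. In N mice 1 to 5 it was 10.4%, 13.3%, 12.4%, 9.98% and 11.8% (mean 11.6% ± 1.39, SD, n = 5). In E mice 1 to 5 it was 10.8%, 10.6%, 10.2%, 12.2% and 9.41% (mean 10.6% ± 1.01, n = 5). In Y mice 1 to 3 it was 11.2%, 17.1% and 14.1% (mean 14.1% ± 2.94, n = 3). The 3 Y mice were far apart, with Y mouse 1 inside the range of the N mice and Y mouse 2 the highest of all 19. The 6 EY mice had between 14.6% and 16.4%, with a median of 14.8% (mean 15.2% ± 0.81), and all 6 lay above every N and E mouse. The share of small subunit genes was 4.67% ± 0.61 in N and 6.04% ± 0.26 in EY, and that of large subunit genes was 6.92% ± 0.79 in N and 9.15% ± 0.56 in EY. Mitochondrially encoded genes held a mean of 11.8% of all TPM in the N mice (10.02% to 14.14%), 8.07% in the E mice (6.66% to 10.6%), 10.7% in the Y mice (8.17% to 13.8%) and 14.6% in the EY mice (9.30% to 17.8%). In the plot of shares by mouse, the separation of EY from N is plain on the left side and is lost on the right side, where the most abundant other genes are left out.

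**Figure D1:**
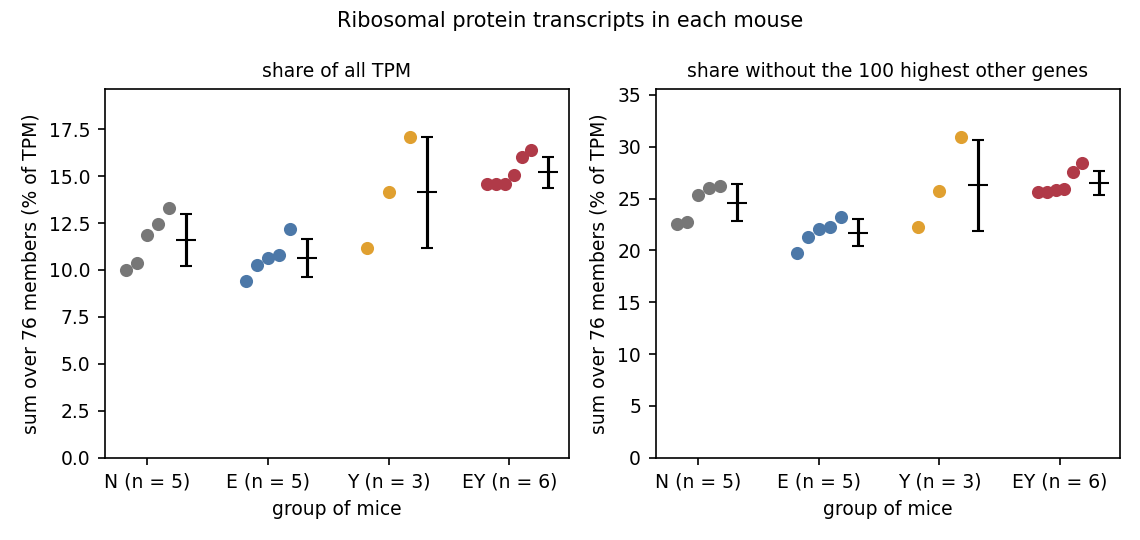
Share of TPM from the 76 ribosomal protein genes in each of the 19 mice (points; bars show the mean and SD of each group), among all genes and among all but the 100 highest other genes. EY mice lie between 14.6% and 16.4% among all genes, above all N mice, and between 25.6% and 28.4% without the 100 highest other genes, where N mice reach 26.2%.

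A share depends on what the rest of the transcriptome does. The 100 highest other genes held 53.01% ± 2.43 of TPM in the N mice and 51.1% ± 1.94 in the E mice. In the Y mice they held 46.5% ± 2.74, and in the EY mice 42.7% ± 1.354. With these genes left out, the ribosomal protein share of the N mice was 24.6% ± 1.78 and that of the E mice 21.7% ± 1.30. That of the Y mice was 26.3% ± 4.38, and that of the EY mice 26.5% ± 1.19. The ranges of N (22.6% to 26.2%) and EY (25.6% to 28.4%) then overlapped. In recovered reads, which are not divided by length, the share was 6.73% ± 0.65 in N and 7.75% ± 0.48 in EY.

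Markers of the outer epithelium were lower in the Y and EY mice than in the N mice. The 9 genes of cornified cells and filiform papillae, of which the papilla keratin Krt36 was the most abundant, summed to 27000, 20542, 23211, 21566 and 25127 TPM in N mice 1 to 5. They summed to 36049, 22251, 26699, 21975 and 19960 TPM in E mice 1 to 5 and to 14764, 10855 and 13413 TPM in Y mice 1 to 3. EY mice 1 to 6 held 2791, 4055, 4015, 3031, 4683 and 3324 TPM. The Y mice thus lay below all N and E mice, and the EY mice below all others. No gene of the list was at 0 in all mice of a group, and 8 of the 9 fell in EY against N, among them the envelope gene Lce1b with a difference of −6.43 (log2, SE 0.27, adjusted p = 4.33e-11). The sum of 10 basal and suprabasal keratinocyte genes, led by Krt13, was 72697 to 140276 TPM in N and 45033 to 61097 TPM in EY. Of these 10 genes 5 rose and 4 fell in EY, with Krt13 at −1.75 (log2, adjusted p = 6.15e-05). Of the basal keratin genes, Krt14 stood at 1.43 (adjusted p = 0.000402) and Krt15 at −1.27 (adjusted p = 0.00281).

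The 8 proliferation genes, led by the replication clamp gene Pcna, summed to 197, 235, 247, 190 and 243 TPM in N mice 1 to 5. They summed to 408, 607, 704, 744 and 662 TPM in E mice 1 to 5 and to 456, 608 and 623 TPM in Y mice 1 to 3. EY mice 1 to 6 held 1148, 1242, 1109, 1199, 1207 and 1184 TPM. The sums of E and Y mice overlapped with each other and lay above all N mice, and the EY mice were highest. In these bulk samples, fewer cells of a type and less RNA per cell cannot be told apart, and the part of these markers in the results on ribosomal protein genes was not tested.

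The comparison of EY with N asks what both transgenes together did to the family. Of the 76 members, 31 rose (adjusted p < 0.01, limma, 40.8% of the members) and 0 fell, beside 23.9% of all genes tested that rose and 7.97% that fell. The members that rose did so by 0.40 to 1.08 (log2), and the differences of all 76 ran from −1.42 to 1.08. Of the 30 small subunit genes 10 rose, and of the 46 large subunit genes 21 rose. At an unadjusted p < 0.05 the count of members was 54 (71.1%, beside 48.6% of all genes). By limma voom on the recovered reads, 10 rose (13.2%, below the 20.1% of all genes) and 0 fell. The 6 EY mice all lay above all 5 N mice for 39 members, which was so for 20.9% of genes tested, and lay below them for 0 members, which was so for 6.49% of genes. Only Rpl13a also exceeded a 2-fold change (log2 of 1), while 18.3% of genes tested passed both limits.

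How far the family stood out depends on the scale. In TPM, the median log2 difference over the members was 0.417 and that over all genes tested was 0.328, so the family was 0.089 above the median gene. Median-of-ratios scaling, which divided the EY values by 1.11 to 1.21 and the N values by 0.80 to 1.02, brought the median of all genes to 0.011 and that of the members to 0.040. The members then stayed above 0 as a median, but only Rpl13a still rose (1.32% of members, beside 13.5% of all genes) and Rplp0 fell, and of all genes tested 3081 rose and 3133 fell (49.6% higher), in place of 5435 and 1813 in TPM. Quantile normalization gave medians of 0.399 for the members and 0.036 for all genes, with 31 members higher (40.8%, beside 14.1% of all genes). With the 3 N mice that carried Krt14-CreERT/LSL-rtTA as the sole controls, 9 members rose (11.8%, below the 17.2% of all genes). Without N mouse 4, which had the lowest share, 18 rose (23.7%, beside 20.8% of all genes), and without N mouse 1 the count was 20 (26.3%, beside 22.9%).

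**Figure D2:**
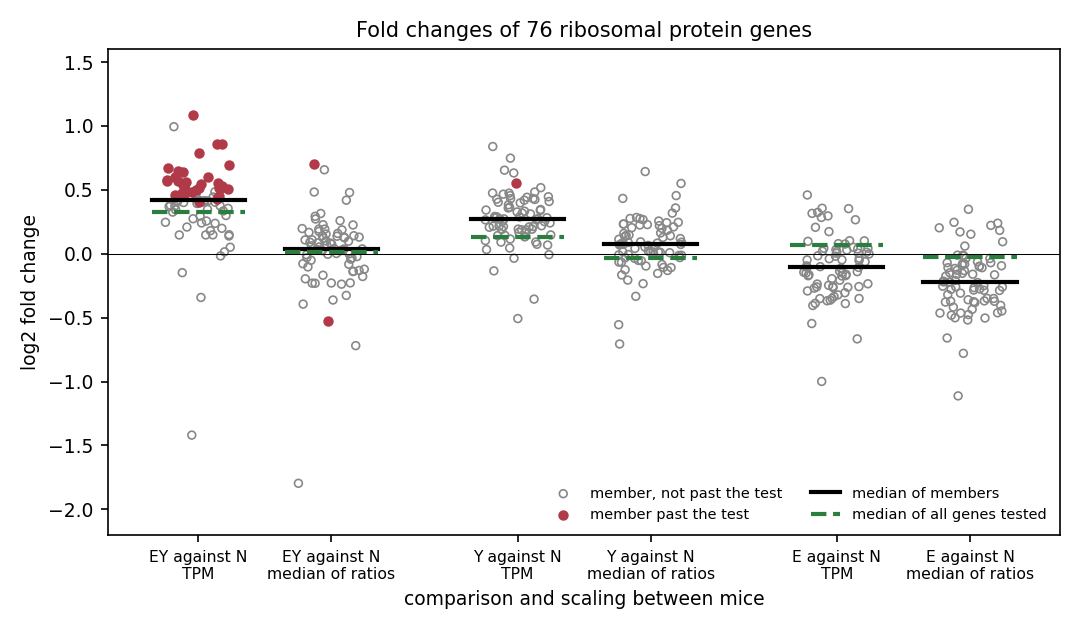
Log2 fold changes of the 76 members against N in EY, Y and E, in TPM and after median-of-ratios scaling (points, filled where past the test; lines are medians of the members and of all genes tested). The member median for EY is 0.417 in TPM and 0.040 after median-of-ratios scaling, where the median of all genes is 0.011, and that for E is below 0 in both.

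Of the 3 stalk genes, Rplp1 and Rplp2 rose and Rplp0 did not pass in TPM. The stalk is a base protein, P0, that carries pairs of the proteins P1 and P2 and activates the GTPases of translation. Rplp0, for P0, was at 4261, 4210, 4525, 4026 and 4509 TPM in N mice 1 to 5, at 4143, 4155, 3613, 4273 and 3452 in E mice 1 to 5, at 3767, 4200 and 4681 in Y mice 1 to 3, and between 3269 and 4504 with a median of 4014 in EY. The 4 groups overlapped, with EY mice both within the N range and below it. The log2 difference of EY from N was −0.15 (SE 0.12, adjusted p = 0.333) in TPM and −0.52 (adjusted p = 0.00306) after median-of-ratios scaling.

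Rplp1, for P1, was at 6152, 6503, 7210, 5227 and 6907 TPM in N mice 1 to 5, at 6364, 6563, 5700, 7292 and 5680 in E mice, at 7086, 10931 and 8901 in Y mice, and between 8452 and 9993 with a median of 9018 in EY. All EY mice lay above all N and E mice, and Y mouse 2 was the highest of all. Rplp1 rose by 0.51 (log2, SE 0.14, adjusted p = 0.00803) in EY. Rplp2, for P2, was at 547, 601, 511, 415 and 515 TPM in N mice, at 686, 593, 588, 746 and 507 in E mice, at 722, 808 and 742 in Y mice, and between 625 and 879 with a median of 735 in EY. Here both the Y and the EY mice lay above all N mice, and the E mice overlapped with each group. Rplp2 rose by 0.52 (SE 0.11, adjusted p = 0.00129) in EY and by 0.56 (SE 0.14, adjusted p = 0.00997) in Y.

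Of the small subunit genes, Rps6 encodes the substrate of the S6 kinases downstream of mTORC1. It was at 1624, 2480, 2080, 1988 and 1985 TPM in N mice 1 to 5, at 1605, 1558, 1554, 1818 and 1398 in E mice, at 1909, 2692 and 2370 in Y mice, and between 2379 and 2856 with a median of 2697 in EY. N mouse 2 overlapped with EY, and 4 of the 5 E mice lay below all N mice. The difference of EY from N was 0.39 (log2, SE 0.12, adjusted p = 0.0121), which missed the threshold. Rpsa encodes a protein of the small subunit that is also known as the laminin receptor. It was at 2171, 2762, 2933, 2477 and 2474 TPM in N mice, at 1973, 2046, 1890, 2282 and 1837 in E mice, at 2527, 3319 and 3094 in Y mice, and between 3335 and 4113 with a median of 3871 in EY. All 6 EY mice lay above the other 13 mice. Rpsa rose by 0.57 (SE 0.11, adjusted p = 0.000451) in EY against N.

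Rps27a encodes ubiquitin joined to a small subunit protein. It was at 1434, 1854, 1785, 1490 and 1647 TPM in N mice 1 to 5, at 1424, 1461, 1446, 1598 and 1340.7 in E mice, at 1543, 2474 and 2083 in Y mice, and between 2067 and 2531 with a median of 2225 in EY. The EY mice lay above all N and E mice, and Rps27a rose by 0.46 (log2, SE 0.12, adjusted p = 0.00397). Rps19, the gene most often mutated in Diamond-Blackfan anaemia, averaged 638 TPM in N and differed by 0.20 (SE 0.12, adjusted p = 0.219) in EY, which flipped to −0.18 after median-of-ratios scaling. Rps27 ranged from 2553 to 4532 TPM in N and from 2596 to 3532 in EY, with a difference of −0.02 (SE 0.18, adjusted p = 0.954).

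Of the large subunit genes, Rpl5 and Rpl11 encode the proteins that, with 5S ribosomal RNA, bind MDM2 when ribosome assembly is disturbed and thereby stabilise p53. Rpl5 was at 599, 830, 754, 676 and 719 TPM in N mice 1 to 5, at 530, 567, 540, 609 and 477 in E mice, at 585, 970 and 836 in Y mice, and between 771 and 974 with a median of 880 in EY. Rpl11 was at 147, 181, 179, 119 and 173 TPM in N mice, at 162, 163, 160, 184 and 146 in E mice, at 177, 268 and 224 in Y mice, and between 225 and 270 with a median of 234 in EY. For Rpl5 the EY mice overlapped with N mouse 2, and for Rpl11 they lay above all N and E mice. Rpl11 rose by 0.60 (log2, SE 0.12, adjusted p = 0.000415), and Rpl5 differed by 0.30 (SE 0.12, adjusted p = 0.0543), which flipped to −0.08 after median-of-ratios scaling.

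Rpl22, a gene recurrently inactivated in cancers, was at 245, 291, 273, 243 and 245 TPM in N mice 1 to 5, at 227, 239, 245, 249 and 211 in E mice, at 215, 348 and 312 in Y mice, and between 304 and 381 with a median of 349 in EY. All EY mice lay above all N and E mice, and Y mice 2 and 3 lay within the EY range. Rpl22 rose by 0.43 (log2, SE 0.10, adjusted p = 0.00284). Rpl41 rose by 0.67 (SE 0.16, adjusted p = 0.00246), with 2528 to 4156 TPM in N and 4713 to 6220 in EY. Rpl3, whose protein lies near the centre where peptide bonds form, had 406 to 605 TPM in N and 592 to 790 in EY, a difference of 0.50 (SE 0.15, adjusted p = 0.0103) that missed the threshold.

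**Figure D3:**
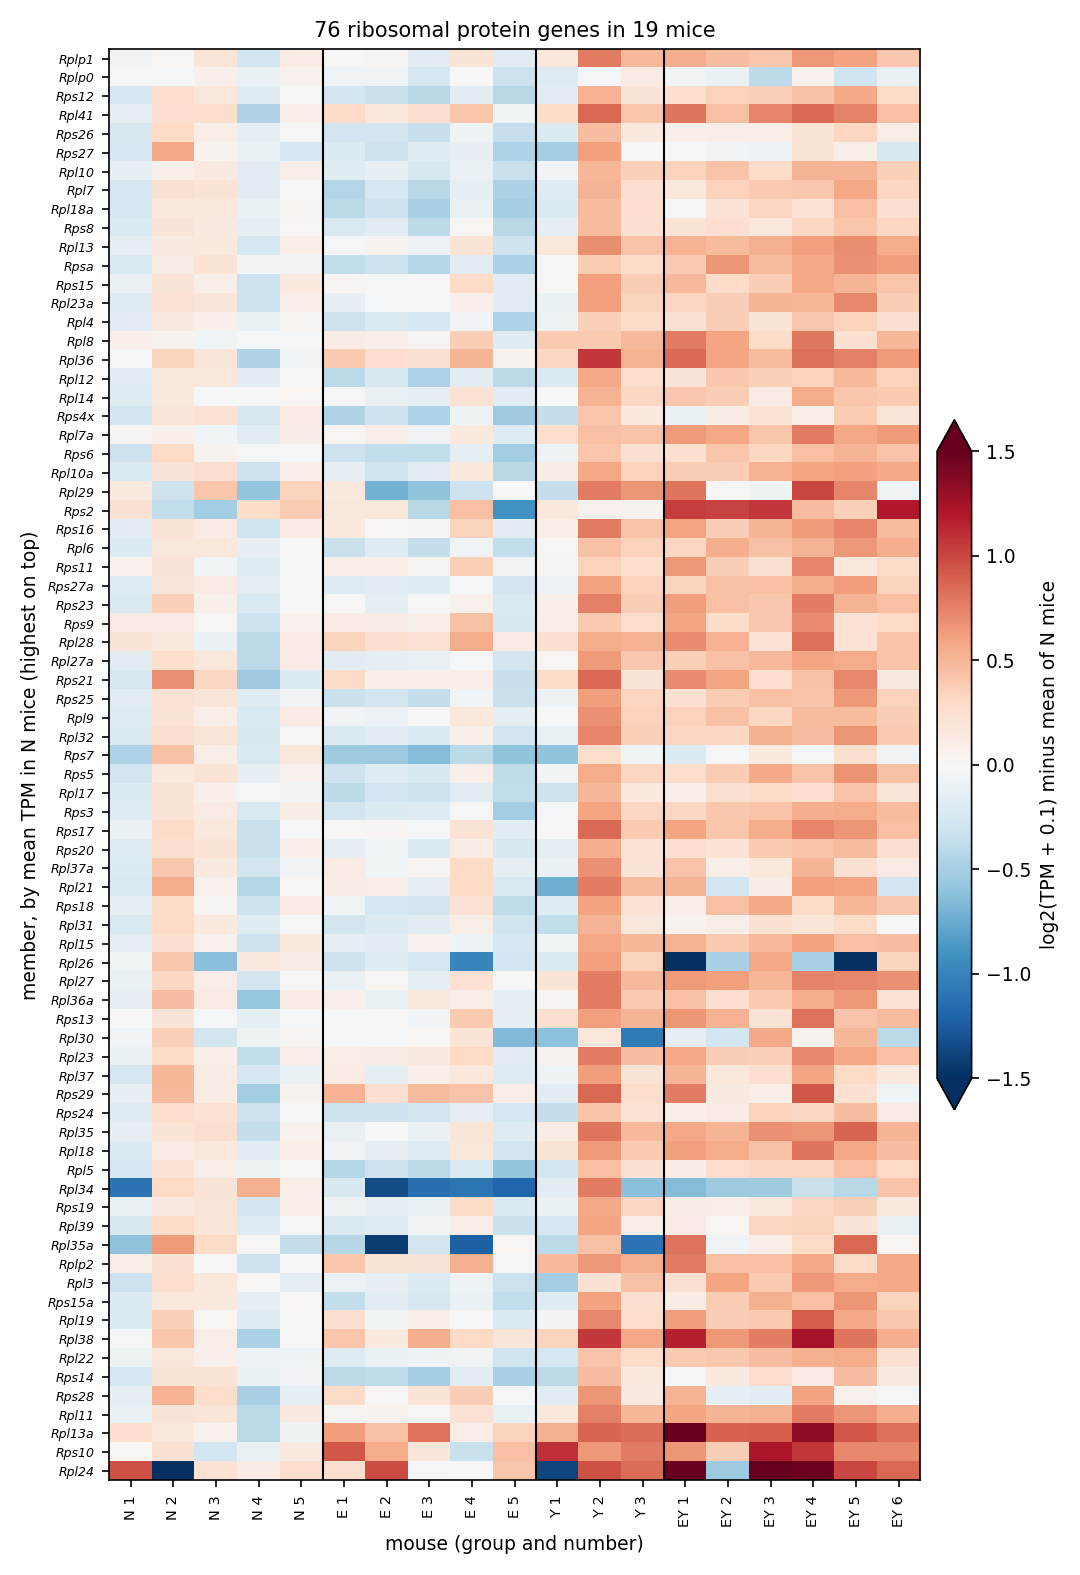
Level of each of the 76 members in each of the 19 mice, as log2 level relative to the average of that member in N (colour), with mice in columns by group. Of the 76 members, 39 are higher in all EY than in all N mice, Rpl26 is far lower in EY mice 1 and 5, and after median-of-ratios scaling the member median for EY is 0.040.

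To see which members moved apart from the rest, each gene was also tested relative to the mean of the members within each mouse. In EY against N, 4 members departed from the family mean, beside 22.9% of all genes tested that passed in this fit. Rpl38, whose loss in mice alters the axial skeleton, was at 252, 344, 277, 185 and 257 TPM in N mice 1 to 5, at 344, 285, 375, 316 and 293 in E mice, at 324, 536 and 385 in Y mice, and between 375 and 609 with a median of 445 in EY. All EY mice lay above all N mice. Rpl38 rose by 0.86 (log2, SE 0.17, adjusted p = 0.000414), which was 0.47 (SE 0.12, adjusted p = 0.00484) above the family.

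Rpl13a, which also encodes a part of a complex that represses translation in interferon-treated myeloid cells, was at 29.0, 27.3, 25.6, 18.4 and 23.2 TPM in N mice 1 to 5, at 37.6, 33.2, 42.8, 26.1 and 30.7 in E mice, at 35.3, 44.8 and 43.6 in Y mice, and between 43.2 and 75.2 with a median of 46.1 in EY. Every Y and EY mouse lay above every N mouse. Rpl13a rose by 1.08 (log2, SE 0.16, adjusted p = 3.46e-05), or 0.69 (SE 0.16, adjusted p = 0.00323) above the family, at the low read number given before. Rplp0 fell by 0.54 (SE 0.12, adjusted p = 0.00245) relative to the family. Rps7, for a small subunit protein that also binds MDM2, stood at −0.38 relative to the family (SE 0.10, adjusted p = 0.00883), and its processed copy is described further on.

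Without N mouse 4, only Rplp0 departed from the family, and without N mouse 3, EY mouse 1 or EY mouse 4 only Rpl13a and Rplp0 did. With the 3 N mice that carried Krt14-CreERT/LSL-rtTA, 0 members departed in limma, with 15 at an unadjusted p < 0.05, while limma voom with all N mice gave 3 (Rpl13a, Rpl38 and Rplp0). With the reads of processed copies added, Rpl13a and Rps7 no longer departed, and Rpl38, Rplp0, Rps27 and Rpl31, the last named after its values were seen, did. With quantile normalization, of the 4 only Rps7 departed, beside Rpl36 and Rpl41 and beside Rpl35 and Rps14, which are named after their values were seen. Rplp0 and Rpl13a, both in common use as reference genes for quantitative PCR, thus moved in opposite directions relative to the family in TPM.

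The comparison of Y with N asks what active YAP did alone. Of the 76 members, 1 rose (Rplp2), beside 7.17% of all genes tested, and 0 fell, beside 1.34%. Members with an unadjusted p < 0.05 numbered 25 (32.9%, beside 28.9% of all genes), and limma voom gave 0. The median over the members was 0.273 beside 0.132 for all genes in TPM, and 0.073 beside −0.033 after median-of-ratios scaling. The 3 Y mice lay above all 5 N mice for 10 members, which was so for 15.5% of genes tested, and below them for 0 members, beside 5.59%. Without Y mouse 1 the median was 0.443, and without Y mouse 2 it was 0.12, so the size of the difference rests on single mice. The largest differences besides Rplp2 were those of Rps10 (0.84, adjusted p = 0.0213), Rpl13a (0.75, adjusted p = 0.0141), Rpl38 (0.65, adjusted p = 0.0329) and Rpl36 (0.63, adjusted p = 0.0297), none of which passed.

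The comparison of E with N asks what the viral oncogenes did alone. No member passed: 0 rose in limma, beside 1.71% of genes tested, and 0 fell, beside 0.044%, with 16 members at an unadjusted p < 0.05 (21.1%, beside 14.8% of all genes) and 0 passing by limma voom. The member median was −0.107 beside 0.068 for all genes, and −0.22 beside −0.024 after median-of-ratios scaling. Of the 76 members, 26 had a difference above 0 in TPM. The E mice lay wholly above the N mice for 0 members, beside 3.93% of genes, and wholly below for 0 members, beside 0.642%. All 8 proliferation genes rose in the same comparison.

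The comparison of EY with E asks what active YAP added to the viral oncogenes. Here 42 members rose, 15 of the small and 27 of the large subunit (55.3% of the members, beside 18.1% of genes tested), and 0 fell, beside 7.16%, with 64 members at an unadjusted p < 0.05 (84.2%, beside 43.6% of all genes). The member median was 0.544 beside 0.264 for all genes, and 0.281 beside 0.042 after median-of-ratios scaling, where 4 members (5.26%, beside 11.2% of all genes) rose, Rpl27, Rpl6, Rps6 and Rpsa, of which Rpl27 and Rpl6 are named after their values were seen. By limma voom 26 members rose (34.2%, beside 15.3% of all genes) and 0 fell. All 6 EY mice lay above all 5 E mice for 45 members, beside 17.6% of genes, and below them for 0 members, beside 6.53%. Among the members that rose in TPM were Rps2 (0.96, SE 0.24, adjusted p = 0.00451), Rpsa (0.92, SE 0.11, adjusted p = 5.58e-06), Rpl6 (0.76, SE 0.11, adjusted p = 2.88e-05), Rps6 (0.74, SE 0.12, adjusted p = 8.85e-05) and Rpl5 (0.69, SE 0.12, adjusted p = 0.000191). The large subunit gene Rpl35a differed by 1.01 (SE 0.32, adjusted p = 0.0194) and did not pass. The levels given before show Rpsa and Rps6 in all EY mice above all E mice.

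The comparison of EY with Y asks what the viral oncogenes added to active YAP. In limma 0 members rose, beside 2.34% of genes tested, and 0 fell, beside 1.19%, with 5 members at an unadjusted p < 0.05 (6.6%, beside 23.9% of all genes) and 0 passing by limma voom. The member median was 0.127 in TPM and flipped to −0.050 after median-of-ratios scaling, beside 0.176 and 0.020 for all genes. The EY mice lay above all Y mice for 2 members, beside 11.1% of genes, and below them for 0, beside 3.37%. The interaction, which asks whether both transgenes together differed from the sum of each alone, gave 0 members higher, beside 0.0176% of genes tested, and 0 lower, beside 0.18%, with 16 members at an unadjusted p < 0.05 (21.1%, beside 13.5% of all genes) and 0 passing by limma voom. Its member median was 0.226 beside 0.078 for all genes, and it was 0.04 without Y mouse 1. For Rpsa, the interaction was 0.70 (log2, SE 0.17, adjusted p = 0.0675). These comparisons share mice with each other, so their values are not independent.

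Across the 19 mice most members moved with each other. The Pearson correlation of a member with the mean of the others, on log2(TPM + 0.1), was over 0.9 for 37 members and over 0.8 for 55. It was under 0.5 for 8, namely Rpl26 (−0.29), Rplp0 (0.11), Rpl30 (0.25), Rpl24 (0.35), Rpl34 (0.36), Rps10 (0.43), Rps2 (0.47) and Rpl35a (0.48). These correlations are descriptions over mice that include the group differences. Within groups, the standard deviation of log2 levels was 0.203 for the median member and 0.168 for the mean over members, with single members as high as 1.317 (Rpl26).

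Several of the members that went their own way share nearly identical sequence with processed copies elsewhere. By sequence (at least 90% identity over at least 50% of the length) or by symbol, 565 genes of the table were copies of 74 members. Their reads made up 2.04% to 4.24% of the reads of members and copies together in each mouse. For the 3 lowest members this part was larger, with a median over the N mice of 93.18% for Rpl24, 53.72% for Rps10 and 26.37% for Rpl13a. Some abundant members also had a large part, with 36.72% for Rpl41, which stood 4th by TPM in N, and 24.25% for Rpl34. For Rpl26, a large subunit protein also reported to bind p53 messenger RNA, the copy is Gm15772, which matched it over 438 bases with 2 differences (99.54% identity) and has 1 exon where Rpl26 has 4. A stretch of each is printed to show how little separates their reads, taken from GENCODE M21 transcripts (GRCm38.p6) with the base that differs in capitals. Rpl26 is from the plus strand of chr11:68903284-68903313, in the coding part of an exon, and Gm15772 from the plus strand of chr5:3236704-3236733.
Rpl26: ggcacaaccgtccaTgtgggcatccacccc
Gm15772: ggcacaaccgtccaCgtgggcatccacccc

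Rpl26 was at 786, 1101, 534, 912 and 891 TPM in N mice 1 to 5, at 662, 721, 692, 414 and 675 in E mice, at 708, 1255 and 1032 in Y mice, and at 39.9, 588, 1230, 586, 47.97 and 1034 in EY mice 1 to 6. Gm15772 was at 24.8, 33.5, 3229, 30.4 and 40.6 TPM in N mice, at 28.8, 32.6, 25.6, 2670 and 20.1 in E mice, at 36.3, 50.9 and 41.8 in Y mice, and at 6549, 3704, 54.8, 3738, 9137 and 67.7 in EY mice 1 to 6. The mice with high Gm15772, which are N mouse 3, E mouse 4 and EY mice 1, 2, 4 and 5, were those with the lowest Rpl26 of their group, and in EY mice 1 and 5 Rpl26 nearly vanished. With the reads of copies added, at the length of Rpl26, the level was 573 to 1242 TPM in EY and 791 to 1107 TPM in N. The difference of EY from N was then −0.03 (log2, adjusted p = 0.929), in place of −1.42 (SE 0.75, adjusted p = 0.146). Whether the copy was transcribed or received reads of the parent was not tested.

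Rps2, for a protein at the entry of the messenger RNA channel, was at 2118, 1404, 1261, 2196 and 2353 TPM in N mice 1 to 5, at 2032, 2037, 1354, 2470 and 965 in E mice, at 2022, 1886 and 1876 in Y mice, and between 2325 and 4155 with a median of 3680 in EY. Its copy Rps2-ps10 was at 15.96, 1407, 1196, 10.2 and 12.7 TPM in N mice, at 10.8, 18.8, 1227, 21.5 and 980 in E mice, at 2177, 2151 and 2120 in Y mice, and between 19.6 and 2643 in EY, where it was high in EY mice 4 and 5. The copy was thus either below 30 TPM or near 1000 and above, and was high in all Y mice. Within N, within E and within EY, Rps2 was lowest in the mice where the copy was high. Rps2 rose by 0.86 (log2, SE 0.24, adjusted p = 0.00829) in EY, and by 0.84 (adjusted p = 0.000394) with copies added.

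Rps7 was at 985, 1841, 1450, 1156 and 1513 TPM in N mice 1 to 5, and its copy Rps7-ps3, matched by symbol alone with no sequence compared, was at 1468, 45.1, 1025, 825 and 54.6 TPM in the same mice. In EY, Rps7 was between 1180 and 1597 TPM and the copy between 1895 and 2574. N mice 2 and 5, where the copy was low, had the highest Rps7 of the N mice. The other groups did not show this order, as the mouse with the most copy also had the most Rps7 among the E mice (E mouse 4), the Y mice (Y mouse 2) and the EY mice (EY mouse 5). With copies added, Rps7 differed by 0.18 (log2, adjusted p = 0.349) between EY and N, in place of 0.02 (adjusted p = 0.953). Rpl34, a large subunit gene, was at 299, 793, 735, 935 and 686 TPM in N mice 1 to 5, with its copy Rpl34-ps1 at 3858, 2063, 2389, 69.7 and 2171 TPM. Among the N mice Rpl34 was highest where its copy was lowest, in N mouse 4, and lowest where it was highest, in N mouse 1. Among the Y mice it was highest in Y mouse 2, while the copy was lowest in Y mouse 1. Rpl34 was also highest where the copy was lowest among the E mice (E mouse 1, 547 and 1615 TPM) and the EY mice (EY mouse 6, 868 and 2669 TPM). Rpl34 differed by −0.34 (adjusted p = 0.404) in EY and by 0.19 (adjusted p = 0.321) with copies added. Over the family, adding copies gave 32 members higher in EY against N in place of 31 (42.1%, beside 23.9% of all genes), and 47 in EY against E in place of 42 (61.8%, beside 18.1%).

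**Figure D4:**
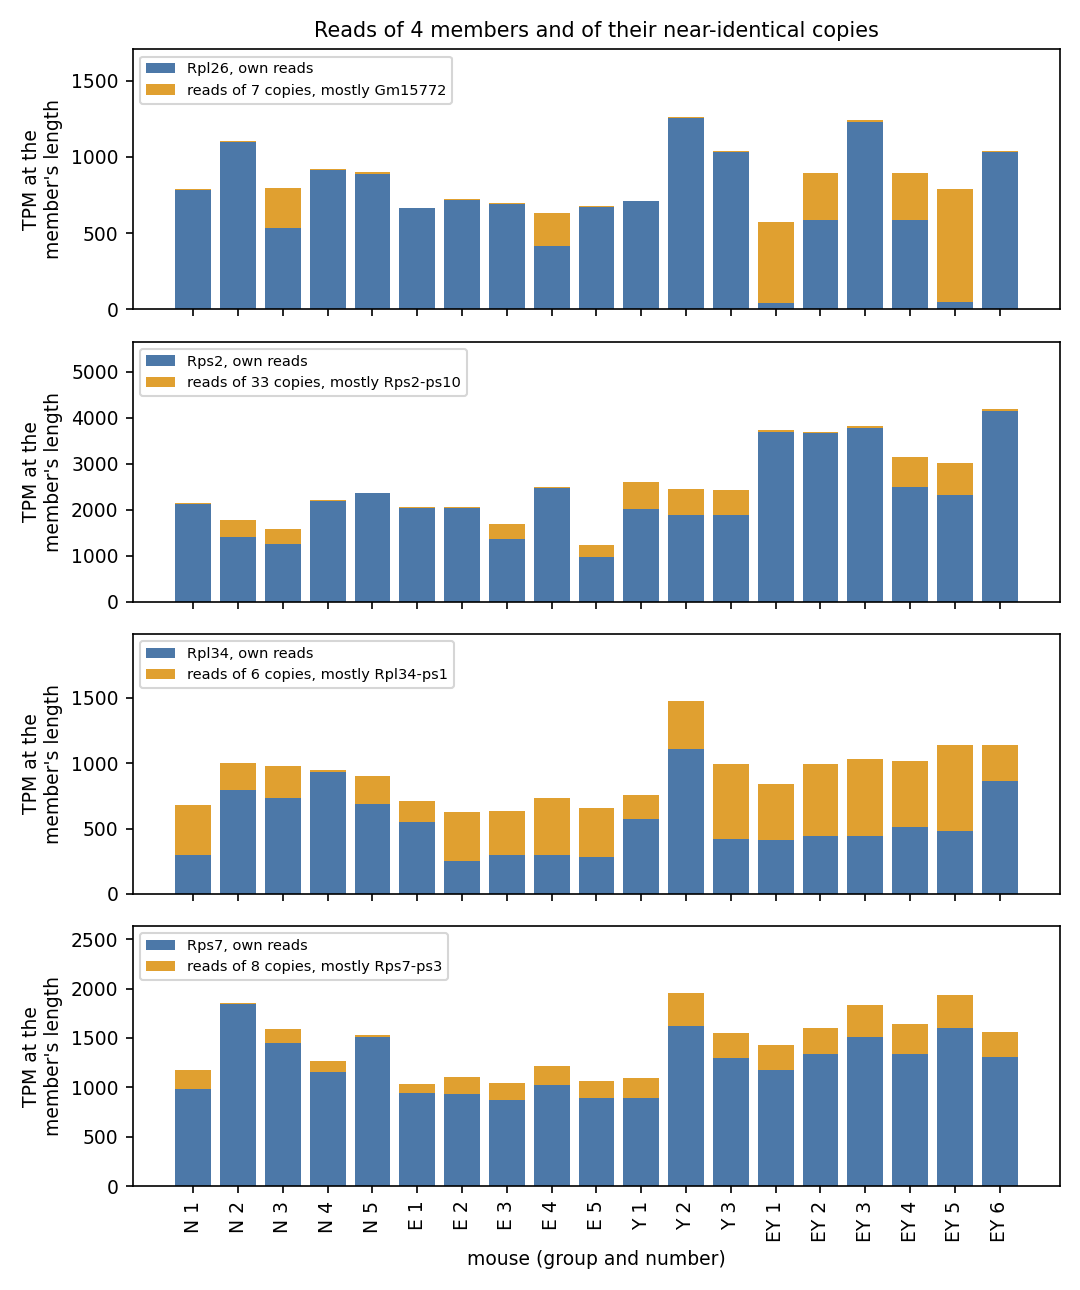
Level of members and of their processed copies in each of the 19 mice, stacked, in TPM at the length of the member. Rpl26 is at 39.9 and 47.97 TPM in EY mice 1 and 5, where Gm15772 is highest, while the sum of Rpl26 and its copies lies between 573 and 1265 TPM in all mice.

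Some ribosomal proteins have symbols that the rule leaves out. Rack1, for a scaffold on the small subunit, differed by 0.32 (log2, adjusted p = 0.0122) in EY against N, and Fau, for a small subunit protein made as a fusion with a ubiquitin-like protein, by 0.25 (adjusted p = 0.0691), and neither passed. Of the 7 paralogs tested, which encode variant ribosomal proteins, 3 rose in EY (42.9%, beside 23.9% of all genes), Rpl7l1 by 0.91 (SE 0.10, adjusted p = 8.49e-07), Rpl22l1 by 0.74 (SE 0.15, adjusted p = 0.000521) and Rps27l by 0.67 (SE 0.10, adjusted p = 2.11e-05). Rps27l, a p53 target, had 112 to 157 TPM in the N mice, 125 to 147 in the E mice, 161 to 206 in the Y mice and 185 to 242 in the EY mice, so that every Y and EY mouse lay above every N and E mouse, and it also rose in Y (0.50, adjusted p = 0.00672), as did Rpl7l1 (0.58, adjusted p = 0.00268). The difference between Rps27l and Rps27, whose value is given before, was not tested.

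Genes that make and assemble the ribosome rose widely in EY. Of 31 genes for ribosomal RNA synthesis and ribosome assembly, 29 rose in EY against N (93.5%, beside 23.9% of all genes), with a list median of 1.08 (log2), which is 0.754 above the median of all genes, and 13 rose in Y (41.9%, beside 7.17% of all genes). The nucleolar protein gene Ncl rose by 1.61 (SE 0.13, adjusted p = 2.49e-08) in EY, from 226 to 277 TPM in N to 540 to 895. Nop58, for a core protein of the particles that methylate ribosomal RNA, rose by 1.58 (SE 0.11, adjusted p = 6.47e-09). Myc, for a transcription factor that drives ribosome production, was at 51.6, 55.4, 41.7, 63.5 and 48.4 TPM in N mice 1 to 5 and between 77.0 and 119 with a median of 87.3 in EY. No EY mouse overlapped with N, and Myc rose by 0.81 (SE 0.12, adjusted p = 3.31e-05). In E against N the list median was 0.093 beside 0.068 for all genes. Of 7 chaperones dedicated to ribosomal proteins, 6 rose in EY (85.7%), led by Grwd1, the chaperone of the protein of Rpl3, by 1.66 (SE 0.17, adjusted p = 6.83e-07), and 3 rose in Y (42.9%).

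Other genes are known for a TOP tract or act beside the ribosome in translation. Of 16 such TOP genes and elongation factors, 8 rose and 8 did not pass in EY (50% rose, beside 23.9% of all genes), with a list median of 0.434, which is 0.106 above that of all genes. Npm1, for a nucleolar protein, rose by 1.88 (log2, SE 0.13, adjusted p = 8.89e-09) and Nap1l1, for a histone chaperone, by 1.64 (SE 0.11, adjusted p = 7.29e-09). Of 32 initiation factors, 25 rose in EY (78.1%), with a list median 0.359 above that of all genes, and 6 rose in Y (18.8%, beside 7.17% of all genes). The largest difference was that of Eif1a, for a factor that helps the small subunit scan, at 1.80 (SE 0.14, adjusted p = 1.86e-08).

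In the mTORC1 and S6 kinase list of 19 genes, 6 rose (31.6%, beside 23.9% of all genes) and 1 fell (5.3%, beside 7.97%) in EY. Eif4ebp1, for a repressor of cap-dependent initiation that mTORC1 inactivates, was at 6.90, 4.62, 5.87, 5.00 and 5.63 TPM in N mice 1 to 5, at 5.70, 10.6, 12.4, 4.91 and 5.06 in E mice, at 21.6, 23.9 and 24.9 in Y mice, and between 25.5 and 51.0 with a median of 31.3 in EY. Every Y mouse lay above every N and E mouse, and every EY mouse above every Y mouse. Eif4ebp1 rose by 2.63 (log2, SE 0.25, adjusted p = 2.24e-07) in EY and by 2.06 (SE 0.30, adjusted p = 0.000186) in Y. The S6 kinase gene Rps6kb1 rose by 0.86 (SE 0.09, adjusted p = 7.44e-07) and Larp1 by 0.54 (SE 0.13, adjusted p = 0.00259). Of the inhibitors of mTOR in the list, Akt1s1 rose by 0.73 (SE 0.13, adjusted p = 0.000247) in EY. Deptor rose by 2.05 (SE 0.21, adjusted p = 5.08e-07) in EY and by 1.07 (SE 0.25, adjusted p = 0.0075) in Y. The p53-induced Sesn1 fell by 1.32 (SE 0.15, adjusted p = 1.74e-06) in EY and by 0.82 (SE 0.18, adjusted p = 0.00484) in Y.

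Of 7 genes of the checkpoint that links ribosomal proteins to p53, 3 rose in EY (42.9%, beside 23.9% of all genes), Ccng1 by 1.65 (log2, SE 0.17, adjusted p = 4.71e-07), Mdm2 by 0.73 (SE 0.12, adjusted p = 5.35e-05) and Trp53 by 0.61 (SE 0.14, adjusted p = 0.00229). Cdkn1a, a p53 target that stops the cell cycle, had 144 to 200 TPM in the N mice, 191 to 263 in the E mice, 157 to 250 in the Y mice and 122 to 159 in the EY mice, with a difference of −0.32 (adjusted p = 0.0445) between EY and N that missed the threshold.

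For scale, 3 other large complexes were counted in the same fit. Of 77 mitochondrial ribosomal protein genes, 67 rose in EY against N (median 0.823, or 0.494 above all genes), 22 in Y and 3 in E. These are 87.0%, 28.6% and 3.9% of the list, beside 23.9%, 7.17% and 1.71% of all genes. Of 37 proteasome genes tested, 35 rose in EY (94.6%, median 0.911, or 0.583 above all genes) and 20 in Y (54.1%), and of 37 genes of respiratory complex I, 21 rose in EY (56.8%, median 0.590, or 0.262 above all genes) and 4 in Y (10.8%). The median of the cytosolic ribosomal proteins, 0.089 above all genes, was lower than that of each of these lists, as the plot of list medians shows. The difference between lists was not tested.

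**Figure D5:**
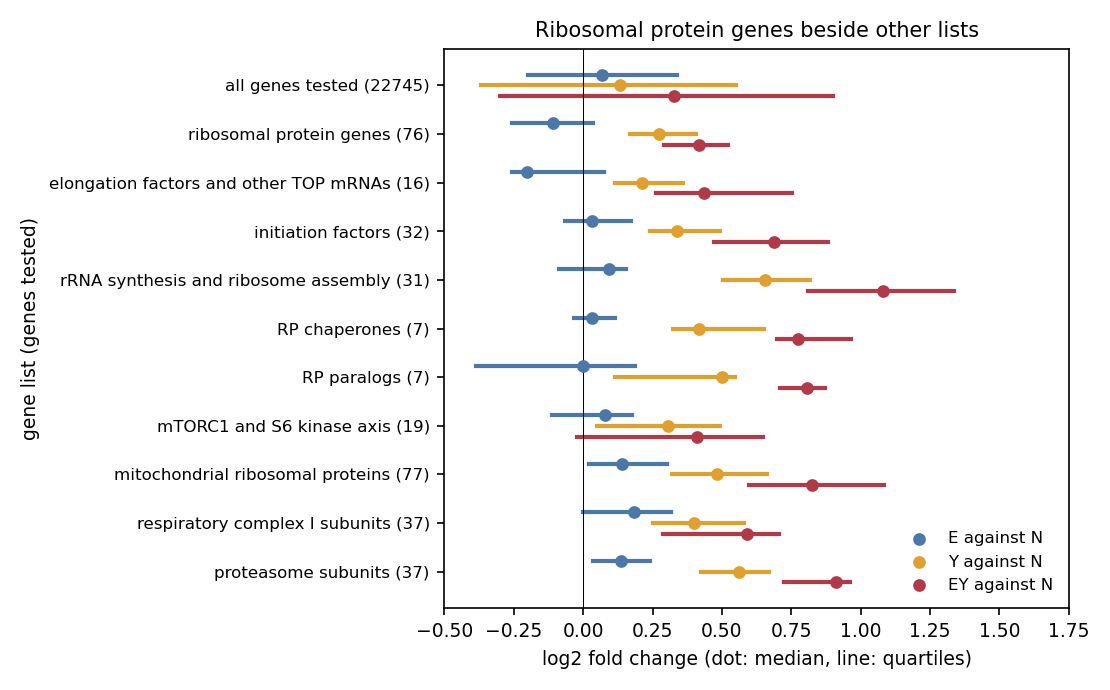
Log2 fold changes against N in EY, Y and E for the ribosomal protein genes and for the other gene lists (dots are medians, lines run between quartiles). Ribosome assembly genes have a median of 1.08 in EY and the members 0.417, which is 0.040 after median-of-ratios scaling.

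Outside the members and lists, the genes most like the family over the 19 mice were ranked by Pearson correlation with the member mean among 5872 genes averaging at least 10 TPM. The highest were Wdr38 (0.960), Nsa2 (0.958) and Tlcd1 (0.946), followed by Gm7536 (0.938), Gm2000 (0.932), Paics (0.931), Arl1 (0.916), Eif2a (0.914), Sdhb (0.913) and Rps3a1 (0.910). Wdr38 overlaps 66.2% of the exon bases of Rpl35, and Tlcd1 59.7% of those of Rpl23a, each on the opposite strand in GENCODE M21. Gm7536 is a copy of Rpl27a with 100% identity over 444 bases, Gm2000 is a copy of Rpl35 with 99.55% identity, and Rps3a1 encodes a small subunit protein that the symbol rule misses. Rps3a1 averaged 1851 TPM over all mice.

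Markers of other cell types varied within groups, and some also changed between them. The 11 skeletal muscle genes, led by Acta1, summed to 22.9 to 315 TPM in the N mice, 29.1 to 182 in the E mice, 31.6 to 224 in the Y mice and 72.3 to 1606 in the EY mice, where EY mouse 3 was the highest. All 11 had differences above 0 in EY against N (median 1.78), and 1, Tnni2, rose (1.82, adjusted p = 0.00432). The 12 leukocyte genes, led by S100a8, summed to 97.6 to 765 TPM in the N mice, 36.5 to 532 in the E mice, 588 to 1005 in the Y mice and 252 to 1049 in the EY mice. S100a8 rose by 4.76 (log2, adjusted p = 3.14e-05) in EY and by 5.44 (adjusted p = 0.000343) in Y. S100a9 rose by 4.80 (adjusted p = 0.000188) in EY and by 5.89 (adjusted p = 0.000842) in Y. The 7 fibroblast genes, led by Dcn, summed to at most 294 TPM in any mouse, the 5 endothelial genes, led by Tie1, to at most 5.45 TPM, and the 5 erythroid genes, led by Hba-a1, to 40.4 to 632 TPM. In EY against N, 6 of the 7 fibroblast genes had differences above 0 (list median 0.451) and did not pass, while Dcn fell by 2.36 (adjusted p = 0.000249). Of 4 endothelial genes tested, all had differences above 0 and Tie1 rose by 1.72 (adjusted p = 0.005). No gene of these lists was at 0 in all mice of a group. EY mouse 3 had a ribosomal protein share of 14.6%, within the range of the other EY mice. The part of these cells in the results was not tested.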

How the data were processed

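The deposited values were TPM, which the authors computed after aligning paired-end reads to GRCm39 with STAR 2.7.9, ordering them with SAMtools 1.7 and counting with HTSeq-count 0.13.5; how lengths were chosen was not stated. Each mouse summed to 1000000. Whole reads were recovered from the TPM for 24680 of 24680 genes above 0 (within 0.001), giving the depths stated. Genes that reached 0.1 TPM in 3 or more of the mice were fitted with limma 3.58.1 in R 4.3.3 (lmFit, eBayes with trend) on log2(TPM + 0.1), with 1 mean per group over all 19 mice and Benjamini-Hochberg adjustment over 22745 genes. A gene passed at adjusted p < 0.01, and 2-fold changes are named where |log2 fold change| > 1. The code was tested on simulated data. Members could be named if among the 5 highest or lowest in N or the 5 largest or smallest differences, if past 2-fold or departing from the family, or for a stated role; list genes if they passed, at most 6 by size, or by a fixed list of 11. Copies were found with BLAST 2.17.0 on GENCODE M21. Members and lists were chosen with earlier results of these data known. Python 3.11.15, pandas 2.3.3, numpy 2.4.6 and matplotlib 3.10.9 were used.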

Additional observations from a re-analysis of the deposited data

Results flagged for a closer look

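In 10 of 111 groups of mice examined, the highest or lowest mouse lay far from the rest compared with the range of its group. Chance gives this in about 1 in 20 groups. Rpl26 was at 413.95 TPM in E mouse 4, the lowest of the E mice, and its copy Gm15772 was high in that mouse. Rpl34 was at 547.44 TPM in E mouse 1 and at 867.52 TPM in EY mouse 6, each the highest of its group, and its copy Rpl34-ps1 was the lowest of its group in both. Rps19 was at 772.92 TPM and Rps26 at 3161.71 TPM in E mouse 4, each the highest of the E mice. Skeletal muscle genes summed to 314.9 TPM in N mouse 2, 181.7 TPM in E mouse 5 and 1606.4 TPM in EY mouse 3, far above the others of their groups. Leukocyte genes summed to 764.5 TPM in N mouse 1, and erythroid genes to 364.7 TPM in N mouse 5, each the highest of the N mice.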

How the results depend on the processing

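The number of members that rose or fell in EY against N was 31. It was 2 after median-of-ratios scaling, 10 with limma voom and 9 with only the 3 N mice with Krt14-CreERT/LSL-rtTA. At adjusted p < 0.05 it was 49 of 76, beside 9538 of the 22745 genes tested. When a 2-fold change was also asked it was 1, beside 18.3% of all genes. Leaving out single mice gave 18 (N mouse 4) to 39, with 20 without N mouse 1. In Y against N it was 1. It was 0 after median-of-ratios scaling, with a pseudocount of 0.01, with no filter and with the 3 N mice. It was also 0 with limma voom, with only the groups compared and with a 2-fold limit. That limit was passed by 1042 of the 22745 genes tested. Quantile normalization gave 2, beside 5.86% of all genes, and leaving out single mice gave 0 to 2. At adjusted p < 0.05 it was 10 of 76, beside 3750 of the 22745 genes tested. In EY against E it was 42, and it was 4 after median-of-ratios scaling, 26 with voom and 0 with a 2-fold limit. Members departing from the family numbered 7 with a filter at 1 TPM, 0 with the 3 N mice, 2 with only the groups compared and 1 to 6 without single mice. Medians after median-of-ratios scaling were 0.04 (EY against N), 0.073 (Y against N), −0.05 (EY against Y) and 0.281 (EY against E). Without single mice the medians in TPM ran from 0.12 (Y mouse 2) to 0.443 (Y mouse 1) in Y against N, from −0.045 to 0.28 in EY against Y and from 0.04 to 0.401 for the interaction. The ribosomal protein share excluding mitochondrially encoded genes was 13.16% in N and 17.81% in EY. Without the 100 highest other genes it was 24.6%, 21.73%, 26.3% and 26.5% in the N, E, Y and EY mice, and in recovered reads 6.73%, 5.92%, 7.53% and 7.75%. Named members changed sign under an alternative 89 times, 0 of them past the test. The cause of these changes was not tested.

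With mice of the same number treated as a block, 21 members rose in EY against N (27.6%, beside 22.1% of all genes), 0 in Y against N (beside 5.21%) and 34 in EY against E (44.7%, beside 16.8%). The 24 pairs of mice with the same number had a median correlation of 0.012 (−0.043 to 0.076) after group means were removed, so the numbers were not read as pairs. The addition of copies, of Rps3a1 to the members and of the share in reads was chosen after seeing the data. Rpl24, Rps10 and Rpl13a had 6, 56 and 139 reads per N mouse. The 3 Y mice limit each comparison with Y.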
